A study of Mus musculus with 51 samples.

Results

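Expression and chromatin marks of 10 genes of the Wnt pathway (ligands, receptors and a feedback gene) were followed by name through the bone libraries of this series: the ligands Wnt4, Wnt5a, Wnt10b and Wnt16, the co-receptors Lrp4, Lrp5 and Lrp6, the R-spondin Rspo2 with its receptor Lgr4, and the target gene Axin2. All 10 genes were found in both expression data sets, among 23315 gene names for the femurs of the vitamin C (VitC) experiment and 25938 for those of the Tet experiment. Peaks were counted for a gene when their midpoint lay between 30 kb before its start and 30 kb after its end.

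Femoral bone, flushed of marrow and freed of periosteum, gave 3 RNA-seq libraries for each of the following groups. The VitC experiment used mice of 20 weeks: wild type mice (WT), which make their own VitC, and Gulo knockout mice, which cannot. The knockout mice drank VitC at 3.3 g/L either until the end (VitC+) or until week 15, followed by 5 weeks without it (VitC+/-). The Tet experiment used mice of 11 weeks that all carried Prrx1-Cre, a transgene that recombines in the limb bud mesenchyme and so in cells of the skeletal lineage but not in blood cells: Ctrl mice with Cre alone, and mice with floxed alleles of Tet1 (Tet1 cKO), Tet2 (Tet2 cKO) or both (Tet1/2 cKO). 5-hydroxymethylcytosine (5hmC), the product of TET enzymes, was mapped by antibody capture in femurs of both knockout groups of the VitC experiment, in Ctrl and Tet1/2 cKO femurs, and in MC3T3-E1 cells, a preosteoblast line from mouse calvaria, grown with VitC at 50 µg/ml (VitC+) or without it (VitC-). The repressive histone marks H3K27me3 and H3K9me3 were mapped in MC3T3-E1 cells only. The cells were cultured for 28 days for 5hmC and for 7 days for the histone marks, so the marks come from different culture times.

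Wnt proteins bind a Frizzled receptor together with Lrp5 or Lrp6, which stabilises beta-catenin and switches on target genes through TCF/LEF factors. In bone this pathway promotes formation by osteoblasts, and osteocytes restrain it by secreting sclerostin and Dkk1, both of which bind the co-receptors. R-spondins, through Lgr receptors, remove the ubiquitin ligases that clear Frizzled from the cell surface, while Axin2, a scaffold of the beta-catenin destruction complex, is induced by the pathway and feeds back on it.

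The promoters of 3 of the ligands differ widely in CpG content. Each stretch below runs from 250 bases before to 50 bases after the start in RefSeq, build GRCm38.p6, on the strand of the gene, with each CpG in capitals. The Wnt4 promoter (chr4:137277385-137277684, plus strand) holds 51 CpG, against a median of 7 over 32851 promoters of this length. The Wnt10b promoter (chr15:98778101-98778400, minus strand) holds 18. The Wnt16 promoter (chr6:22287977-22288276, plus strand) holds 10 and was the only one of these 3 under an H3K27me3 peak in MC3T3-E1 cells, with VitC and without.
Wnt4: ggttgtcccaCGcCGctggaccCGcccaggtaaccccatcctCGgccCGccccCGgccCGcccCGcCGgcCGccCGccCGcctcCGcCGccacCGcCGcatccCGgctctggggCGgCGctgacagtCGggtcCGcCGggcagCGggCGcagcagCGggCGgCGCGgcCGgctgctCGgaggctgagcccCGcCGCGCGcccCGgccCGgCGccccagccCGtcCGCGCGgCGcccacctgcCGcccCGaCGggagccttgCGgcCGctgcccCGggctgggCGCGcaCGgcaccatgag
Wnt10b: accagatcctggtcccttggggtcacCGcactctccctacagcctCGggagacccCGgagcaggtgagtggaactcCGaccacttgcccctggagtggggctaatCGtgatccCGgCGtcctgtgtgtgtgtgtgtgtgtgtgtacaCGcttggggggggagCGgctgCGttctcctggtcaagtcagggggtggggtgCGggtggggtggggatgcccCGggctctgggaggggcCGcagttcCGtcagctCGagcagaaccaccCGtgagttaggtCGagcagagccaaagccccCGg
Wnt16: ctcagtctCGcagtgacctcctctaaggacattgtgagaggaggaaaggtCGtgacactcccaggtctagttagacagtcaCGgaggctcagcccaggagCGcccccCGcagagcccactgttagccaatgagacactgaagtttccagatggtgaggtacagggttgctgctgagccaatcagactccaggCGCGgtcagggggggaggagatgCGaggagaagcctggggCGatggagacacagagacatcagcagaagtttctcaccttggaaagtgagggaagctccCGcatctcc
The promoters of Axin2 (31 CpG) and Lgr4 (18 CpG) were read as well. The letters CTTTGA or TCAAAG, the core that TCF/LEF factors recognise, were searched on both strands and occurred in none of these 5 windows. They occurred in 16.0% of all promoters of this length. Promoters of Wnt5a, Lrp4, Lrp5, Lrp6 and Rspo2 were not used here.

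Both further stretches are regions in which MC3T3-E1 cells had a 5hmC peak with VitC. They are the central 300 bases of a peak 1.63 kb upstream of Wnt10b (755 bp long, 9.42-fold enriched) at chr15:98779627-98779926 with 10 CpG, and of a peak 2.62 kb upstream of Axin2 (963 bp long, 13.3-fold enriched) at chr11:108917584-108917883 with 3 CpG. Both are given on the plus strand of GRCm38. Each peak was picked as the most enriched of its window outside exons among those overlapped by no peak of the list without VitC.
Wnt10b upstream peak: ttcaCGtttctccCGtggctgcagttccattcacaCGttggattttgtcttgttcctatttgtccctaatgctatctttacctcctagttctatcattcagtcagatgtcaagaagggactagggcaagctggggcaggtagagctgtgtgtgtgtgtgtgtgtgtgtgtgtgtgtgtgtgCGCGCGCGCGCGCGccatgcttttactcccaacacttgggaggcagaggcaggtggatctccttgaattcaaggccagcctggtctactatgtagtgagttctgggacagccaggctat
Axin2 upstream peak: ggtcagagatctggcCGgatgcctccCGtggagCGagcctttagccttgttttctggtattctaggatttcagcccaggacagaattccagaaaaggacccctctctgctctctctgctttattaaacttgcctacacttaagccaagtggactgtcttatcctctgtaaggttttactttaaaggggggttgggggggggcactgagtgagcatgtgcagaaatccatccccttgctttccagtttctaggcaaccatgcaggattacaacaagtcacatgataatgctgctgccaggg
Most CpG of the Wnt10b stretch lie in a single uninterrupted run behind a TG repeat.

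Reads per library, as implied by the values, were 7.55 M for WT replicate 1 and 30.9 to 47.2 M for the other 8 libraries of the VitC experiment, and 28.6 to 49.8 M in the Tet experiment. Gulo was at 0.537, 0.442 and 0 scaled RPKM in the libraries labelled WT, at 0.238, 0.0335 and 0.0268 in those labelled VitC+, and at 0.0123 to 0.0177 in those labelled VitC+/-. Thus replicate 3 labelled WT had no Gulo signal, and the number of members called against WT is also given without it. Counts over the whole Tet1 and Tet2 genes do not check the deletion of a single exon and were not lower throughout the knockouts (Tet1 532 to 773 in Tet1 cKO against 374 to 435 in Ctrl). Summed levels of 13 osteoblast and osteocyte markers ranged from 1055 to 3978 scaled RPKM in WT, from 5564 to 10874 in VitC+ and from 699 to 4485 in VitC+/- libraries. Thus the VitC+ femurs stood apart from both other groups, also from WT femurs, whose mice make their own VitC. Since whole bone was measured, fewer cells of a type and less RNA per cell cannot be told apart.

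Lrp4 and Lrp5 had the highest level per transcript length of the members in WT and VitC+ femurs, and Lrp4 and Wnt4 in VitC+/- femurs. Levels are given as scaled RPKM, the RPKM of a library after division by its own median-of-ratios factor (0.757 to 1.10). In VitC+ femurs the order by mean was Lrp4 (19.6 ± 5.86, SD, n = 3), Lrp5 (14.7 ± 2.47), Wnt4 (8.95 ± 3.82), Lgr4 (5.19 ± 1.30), Lrp6 (4.05 ± 0.402), Wnt10b (3.25 ± 0.144), Wnt5a (1.15 ± 0.238), Rspo2 (0.994 ± 0.260), Axin2 (0.476 ± 0.130) and Wnt16 (0.295 ± 0.204). The ranges of Lrp4 and Lrp5, of Wnt4 and Lgr4, of Lgr4 and Lrp6, of Wnt5a and Rspo2, and of Axin2 and Wnt16 overlapped, so these neighbours did not differ beyond their spread. In VitC+/- femurs Wnt10b moved up to the fourth place (7.39 ± 4.36), and the ranges of Wnt4, Lrp5 and Wnt10b overlapped. In WT femurs Lrp5 (8.78 ± 1.27) and Lrp4 (8.41 ± 2.68) led with overlapping ranges.

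**Figure D1:**
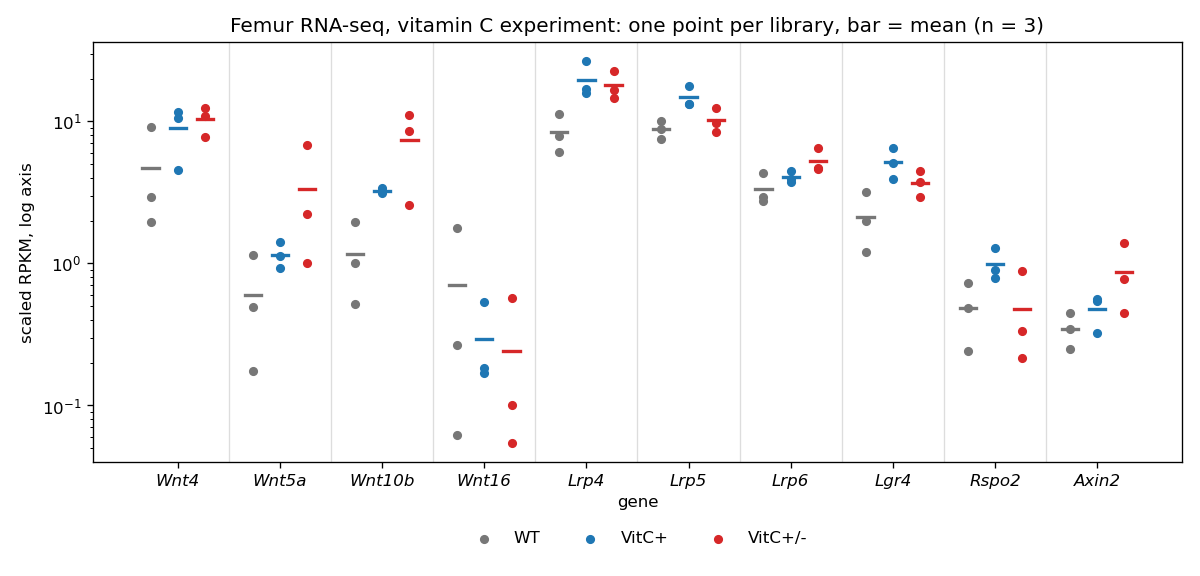
Scaled RPKM of the 10 genes (log axis) in the 9 femur libraries of the VitC experiment, with 1 point per library and a bar at the mean of each group. The WT points of Lrp4 and Wnt10b lie below all points of VitC+ and VitC+/-.

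VitC withdrawal was compared with VitC kept throughout in Gulo knockout femurs. None of the 7 members that passed the filter on low values (RPKM of at least 1 in 3 libraries) was called at an adjusted p under 0.05 (limma, Benjamini-Hochberg), while 13.4% of the 12586 genes tested were (5.93% higher and 7.52% lower). By an unadjusted p under 0.05, 1 member (Lrp5) and 31.3% of all genes passed. The members' median log2 fold change was 0.28, against 0.02 over all genes tested, with 4 members higher and 3 lower.

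Among the ligands, Wnt10b, which favours osteoblasts over adipocytes among marrow stromal cells, was at 3.41, 3.12 and 3.24 scaled RPKM in VitC+ libraries and at 8.51, 2.57 and 11.1 in VitC+/- libraries. Replicates 1 and 3 without VitC were above, and replicate 2 below, every VitC+ library. The log2 fold change was 0.87 ± 0.47 (SE; adjusted p = 0.243, limma), and it was 1.45 (adjusted p = 0.0321, limma) without VitC+/- replicate 2 and 0.49 (adjusted p = 0.540) without VitC+/- replicate 3. Wnt5a, the main activator of signalling without beta-catenin, was at 1.13, 0.930 and 1.40 in VitC+ and at 2.22, 1.01 and 6.78 in VitC+/- libraries. Its replicate 2 without VitC lay within the VitC+ range and the other replicates above it (log2 fold change 0.92 ± 0.53, adjusted p = 0.269, limma). Wnt4, a ligand that restrains inflammatory bone loss, was at 10.6, 4.57 and 11.6 with VitC and at 12.5, 10.9 and 7.81 without. These ranges overlapped, with a log2 fold change of 0.28 ± 0.50 (adjusted p = 0.736, limma), which turned to -0.12 without VitC+ replicate 2.

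Wnt16, the ligand that protects cortical bone, did not pass the filter. It was at 0.185, 0.531 and 0.170 scaled RPKM in VitC+ and at 0.10, 0.0546 and 0.566 in VitC+/- libraries, which corresponds to 2.97 to 46.6 reads per library over the whole experiment. These values overlapped and rest on too few reads to show a difference.

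Of the co-receptors, Lrp5, in which loss lowers and gain raises bone mass, was at 13.3, 13.3 and 17.6 in VitC+ and at 8.44, 12.5 and 9.75 in VitC+/- libraries. All 3 libraries without VitC were below all 3 with it, which held for 19.1% of all genes tested. The log2 fold change was -0.51 ± 0.19 (adjusted p = 0.0968, limma) and so missed the threshold. Lrp6, the closest relative of Lrp5, was at 3.72, 3.94 and 4.50 with VitC and at 4.66, 4.59 and 6.50 without. Here the libraries without VitC were all higher, as for 21.4% of genes, with a log2 fold change of 0.32 ± 0.20 (adjusted p = 0.314, limma). Lrp4, the receptor that anchors sclerostin at the osteocyte surface, was at 16.8, 15.8 and 26.4 with VitC and at 22.6, 16.7 and 14.6 without. Its groups overlapped (log2 fold change -0.11 ± 0.27, 95% confidence interval -0.72 to 0.50). Its sign turned without VitC+ replicate 3 (0.12), without VitC+/- replicate 3 and with unscaled RPKM.

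Lgr4, the R-spondin receptor, was at 3.93, 5.12 and 6.52 in VitC+ and at 2.93, 4.44 and 3.74 in VitC+/- libraries, overlapping, with a log2 fold change of -0.43 ± 0.30 (adjusted p = 0.355, limma). Rspo2, a ligand of Lgr4 made by osteoblasts, was at 0.795, 0.900 and 1.29 with VitC and at 0.217, 0.336 and 0.889 without, and Axin2 was at 0.561, 0.326 and 0.541 with and at 0.772, 0.449 and 1.39 without. Neither passed the filter. With the filter removed, the log2 fold change was -0.65 (adjusted p = 0.196, limma) for Rspo2 and 0.44 (adjusted p = 0.309, limma) for Axin2.

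Markers of other cell types moved with these values. The summed level of 10 osteoclast markers was 1904 to 2633 scaled RPKM in VitC+ libraries and 5294, 2958 and 6532 in VitC+/- replicates 1 to 3, so that the replicates with high Wnt10b and Wnt5a also had the most osteoclast RNA. None of these markers was at 0 in all libraries of a group. In VitC+/- replicates 1 to 3 the osteoblast and osteocyte sums were 2330, 699 and 4485. The sums of 8 fibroblast and tendon markers were 230, 101 and 561. Both sums had the same order as Wnt10b and Wnt5a across these replicates. The sum of the 11 measured of 12 keratinocyte markers, of which 3 were at 0 in all VitC+/- libraries, was 1.32 to 2.94 in VitC+ and 17.5, 3.07 and 58.7 in VitC+/- libraries, of which corneodesmosin (Cdsn) made up 16.4, 1.69 and 57.3, while Krt5 and Krt14, which define basal keratinocytes, were at 0.0127 or less in VitC+/- libraries. The sum of 9 adipocyte markers was 180 to 400 in VitC+ libraries and reached 2447 in VitC+/- replicate 2, where Wnt10b and Wnt5a were low. Neutrophil markers, 10 in number, summed to 29258 to 45956 with VitC and to 6862 to 23309 without. Sums of 10 B-lineage markers (82.7 to 163 with VitC, 14.4 to 27.2 without), 10 chondrocyte markers (140 to 473 and 33.0 to 47.1) and 8 megakaryocyte markers (245 to 680 and 133 to 182) were lower in every library without VitC. The sum of the 6 measured of 8 erythroid markers was higher (151 to 231 and 276 to 384). The part of these markers in the Wnt values was not tested.

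Against WT femurs, VitC+/- femurs had higher levels of all 7 members tested, and 3 of them were called (Wnt10b, Lrp4 and Wnt5a), beside 15.3% of all genes called higher and 31.3% called in either direction. An unadjusted p under 0.05 was reached by 6 members and by 43.8% of genes. The median log2 fold change of the members was 1.07, against 0.01 over all genes. This comparison differs in Gulo genotype as well as in VitC, and it shares its VitC+/- libraries with the comparison above.

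Wnt10b was at 1.94, 0.518 and 1.01 scaled RPKM in WT libraries, all below the 2.57 to 11.1 of the VitC+/- libraries. The log2 fold change was 2.14 ± 0.47 (adjusted p = 0.00932, limma), and Wnt10b was called whichever library was left out (adjusted p between 0.00125 and 0.0393). Lrp4 was at 11.3, 6.06 and 7.82 in WT libraries, again below all VitC+/- libraries (such a separation was found for 21.4% of genes), and Lrp4 rose with a log2 fold change of 1.07 ± 0.27 (adjusted p = 0.0166, limma). Its call was lost without WT replicate 3 (adjusted p = 0.0566) or VitC+/- replicate 1 (adjusted p = 0.0662). Wnt5a was at 1.14, 0.176 and 0.493 in WT libraries, of which the first was above VitC+/- replicate 2. Its rise of 1.59 ± 0.53 (adjusted p = 0.0465, limma) was lost without WT replicate 2, WT replicate 3, VitC+/- replicate 1 or VitC+/- replicate 3 (adjusted p between 0.0925 and 0.123), without a filter (adjusted p = 0.0810), with a filter at an RPKM of 0.1 (adjusted p = 0.0512), with a pseudocount of 1 (adjusted p = 0.0533) and with the libraries of these groups alone (adjusted p = 0.0889).

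Wnt4, Lgr4 and Lrp6 came close to the threshold against WT, with WT replicate 1, the library of low depth, closest to the VitC+/- libraries for Wnt4 and Lgr4. Wnt4 in WT was at 9.16, 1.95 and 2.94 (log2 fold change 1.31 ± 0.50, adjusted p = 0.0720), and without WT replicate 1 its adjusted p was 0.00816. Lgr4 in WT was at 3.21, 1.21 and 1.98 (0.73 ± 0.30, adjusted p = 0.0868), and its adjusted p was 0.0221 without WT replicate 1. Lrp6 in WT was at 2.76, 4.34 and 2.93 (0.59 ± 0.20, adjusted p = 0.0537), with an adjusted p of 0.0192 without WT replicate 2. Lrp5, at 7.5, 10.0 and 8.80 in WT, overlapped with VitC+/- (0.20 ± 0.19). Thus the number of members called was 5 without WT replicate 1, and 1 without WT replicate 3 or without VitC+/- replicate 1. The osteoclast marker sum was 811 to 898 in WT, below all VitC+/- libraries, and that of neutrophil markers was 51713 to 72937, above all of them. The adipocyte sum was 104 to 186 in WT and 310 to 2447 in VitC+/-, with 6 of 8 tested markers called higher, and the B-lineage sum 53.1 to 177 and 14.4 to 27.2, with 9 of 10 called lower. Sums of endothelial and erythroid markers were also higher, and of megakaryocyte markers lower, in every VitC+/- than in every WT library. Their part in these differences was not tested.

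WT was also compared with VitC+, mice that have VitC from different sources. All 7 members were lower in WT, with a median log2 fold change of -1.03 against 0.04 over all genes. None was called by limma, nor was any of the 12586 genes, while an unadjusted p under 0.05 was reached by 4 members and by 22.0% of all genes. The WT libraries were all below the VitC+ libraries for Wnt10b, Lrp4, Lrp5 and Lgr4, as for 14.5% of genes. The log2 fold changes of these 4 were -1.27 ± 0.47, -1.18 ± 0.27, -0.71 ± 0.19 and -1.16 ± 0.30 (adjusted p between 0.0836 and 0.167, limma). Without WT replicate 1, Lrp4 (-1.40) and Lgr4 (-1.43) passed the threshold (adjusted p = 0.0390 for both) along with 604 genes in all, while 0 members passed without WT replicate 3. The osteoblast and osteocyte markers, lower in every WT library than in every VitC+ library, moved the same way. So did osteoclast (811 to 898 in WT, 1904 to 2633 in VitC+) and endothelial sums (88.2 to 147, 156 to 246). Fibroblast and tendon (87.1 to 317, 347 to 511) and chondrocyte sums (36.9 to 99.9, 140 to 473) did as well. Neutrophil sums were higher in every WT library (51713 to 72937, 29258 to 45956). The part of these markers was not tested.

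**Figure D2:**
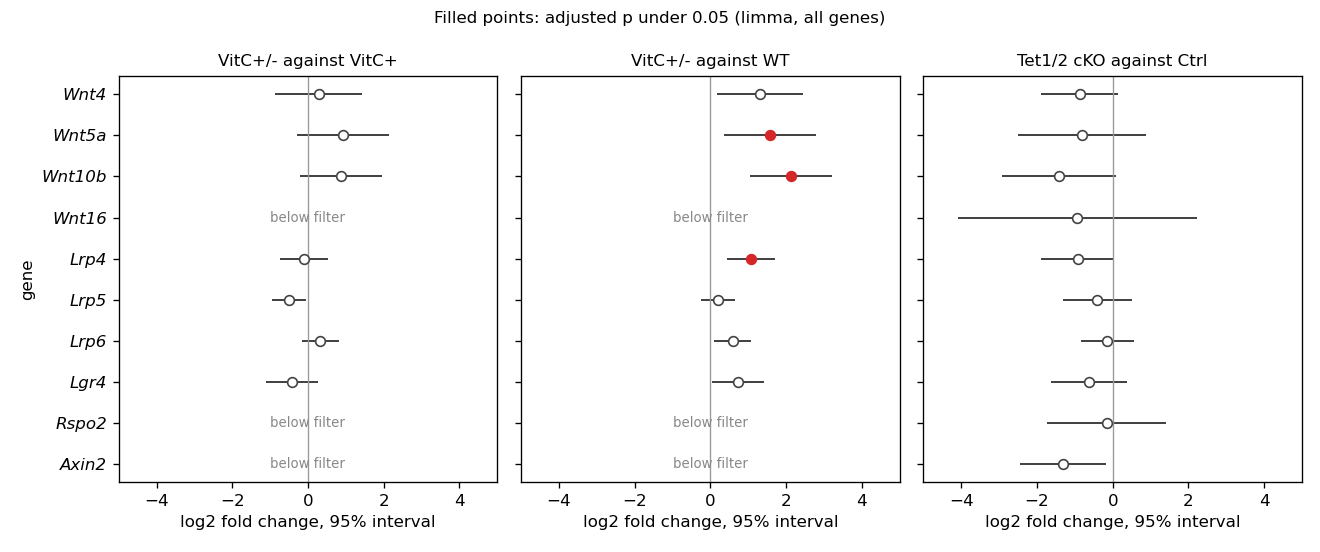
Log2 fold change of each gene with its 95% confidence interval in 3 comparisons, from limma fits across all genes of an experiment. Filled points passed an adjusted p of 0.05, which only Wnt10b, Lrp4 and Wnt5a did, in VitC+/- against WT, and in Tet1/2 cKO against Ctrl all 10 points lie below 0.

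Lists of the rest of the pathway put these values in context. Of 79 further Wnt pathway genes, 46 were tested in VitC+/- against VitC+ femurs and 10 were called, 7 higher and 3 lower, which is 21.7% beside 13.4% of all genes. With 1 library left out, 2 to 7 of them were called. Of 15 other ligands only 1 passed the filter and it was not called, and neither of the 2 tested of 7 further genes of the R-spondin axis was called. Against WT, 12 of the 46 (26.1%) were called, all higher in VitC+/- femurs, beside 15.3% of all genes called higher and 31.3% in either direction.

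Porcn, the acyltransferase that lipidates every Wnt so that it can be secreted, rose from 7.61, 4.68 and 6.09 scaled RPKM with VitC to 27.7, 16.1 and 26.2 without. All libraries without VitC were above all with it, the log2 fold change was 1.83 ± 0.25 (adjusted p = 0.00361, limma), and the call held whichever library was left out. Of 7 tested Frizzled and other receptors, 2 were called, both higher. Fzd1 was at 2.25, 1.06 and 1.85 with VitC and at 5.03, 4.64 and 12.4 without (1.73 ± 0.36, adjusted p = 0.0169, lost without VitC+ replicate 2, adjusted p = 0.0688, or VitC+ replicate 3, adjusted p = 0.0520). Fzd4 was at 1.80, 2.0 and 2.37 with and at 4.21, 6.32 and 3.30 without (0.96 ± 0.24, adjusted p = 0.0320), and its call was lost in 5 of 6 leave-outs, the exception being VitC+/- replicate 3 (adjusted p up to 0.101), with unscaled RPKM (adjusted p = 0.0546) and without a filter (adjusted p = 0.0562).

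Of 9 tested antagonists, 3 fell and 1 rose. Dkk1, which blocks Lrp5 and Lrp6, fell from 7.13, 8.64 and 7.37 with VitC to 1.28, 0.895 and 2.18 without (-2.12 ± 0.41, adjusted p = 0.0127, lost without VitC+ replicate 2, adjusted p = 0.0545, or VitC+/- replicate 1, adjusted p = 0.0534). Sost, which encodes sclerostin, fell from 36.1, 17.4 and 10.4 to 4.73, 6.91 and 3.55 (-1.84 ± 0.44, adjusted p = 0.0281), a call that was lost in 4 of 6 leave-outs, without VitC+ replicate 1 or 2 or VitC+/- replicate 1 or 3 (adjusted p up to 0.0884), and without a filter (adjusted p = 0.0516). Wif1, which binds Wnt proteins, fell by 1.6 on the log2 scale (adjusted p = 0.0144, or 0.0565 without VitC+ replicate 3), and Kremen1, a receptor of Dkk1, rose by 1.15 (adjusted p = 0.0304, lost in 4 of 6 leave-outs and without a filter). Wif1 and Kremen1 are named after their values were seen. Against WT, the log2 fold changes of VitC+/- femurs were -0.48 for Dkk1, 0.09 for Sost and -0.07 for Wif1, with overlapping groups and no call. Kremen1 was called higher there as well (1.84, adjusted p = 0.00222, limma). Dkk1, Sost and Wif1 were also lower in every WT than in every VitC+ library, without a call. The osteoblast and osteocyte marker sums given above were lower in every VitC+/- and every WT library than in every VitC+ library, and their part was not tested.

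In each of the remaining 3 lists, 1 gene was called. They were Dvl3, a cytoplasmic relay of Frizzled (0.97 ± 0.25, adjusted p = 0.0353, lost in 6 of 6 leave-outs), Bcl9l, a cofactor of beta-catenin (from 2.21 to 3.44 scaled RPKM with VitC to between 4.36 and 9.75 without, adjusted p = 0.0384, lost in 5 of 6), and Id2, an inhibitor of basic helix-loop-helix factors listed as a target (0.80 ± 0.18, adjusted p = 0.0211, lost in 4 of 6). The calls of Dvl3 and Bcl9l were also lost without a filter, that of Dvl3 with unscaled RPKM and that of Bcl9l with the libraries of these groups alone. Id2 was the only one of 8 tested target genes that was called.

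The Tet experiment gave values as normalized counts, which compare libraries for a gene but not genes of different length. All 10 members passed the filter (3 libraries with 10 or more normalized counts). In Tet1/2 cKO against Ctrl femurs, every member had a negative log2 fold change, with a median of -0.84 against -0.01 over the 16780 genes tested. None was called by limma, nor was any other gene. An unadjusted p under 0.05 was found for 2 members and for 5.05% of all genes, and on the recovered reads edgeR called 0 genes and DESeq2 10, with 0 members among either. For 6 of the 10 members all Tet1/2 cKO libraries lay below all Ctrl libraries, which held for 10.0% of all genes.

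**Figure D3:**
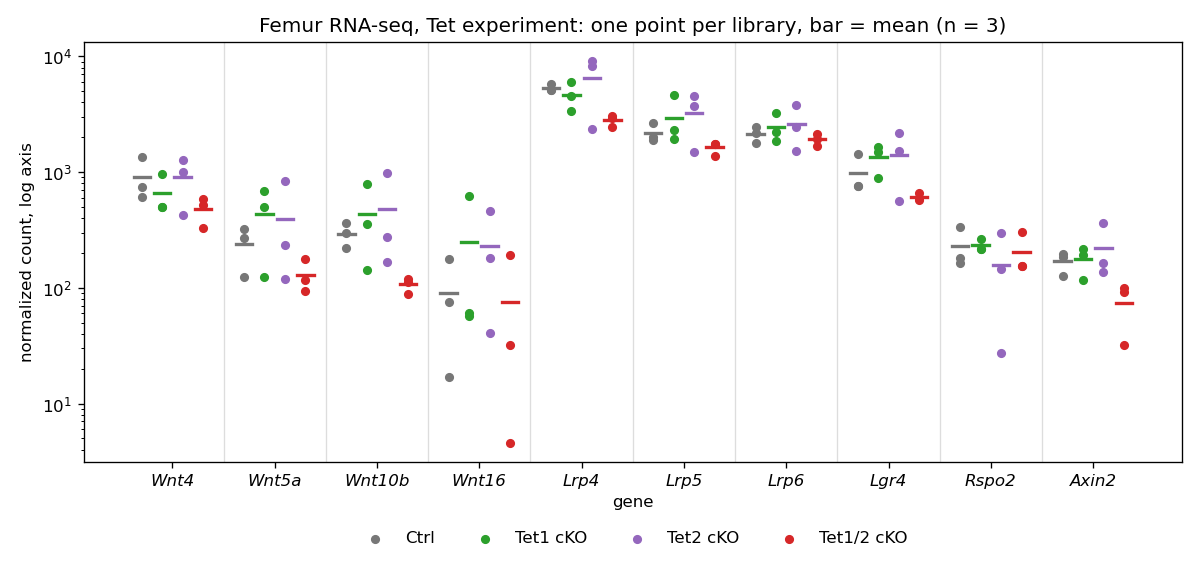
Normalized counts of the 10 genes (log axis) in the 12 femur libraries of the Tet experiment, with 1 point per library and a bar at the mean of each group. The Tet1/2 cKO points lie below all Ctrl points for Wnt4, Wnt10b, Lrp4, Lrp5, Lgr4 and Axin2, and the single knockouts spread over both.

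Axin2 was at 184, 127 and 196 normalized counts in Ctrl and at 32.1, 91.3 and 98.8 in Tet1/2 cKO libraries, which did not overlap. The log2 fold change was -1.31 ± 0.51 (unadjusted p = 0.0247, adjusted p = 0.723, limma). Lrp4 was at 5082, 5812 and 5115 in Ctrl and at 2441, 3064 and 2917 in Tet1/2 cKO libraries, the clearest separation among the co-receptors. Its log2 fold change was -0.93 ± 0.42 (unadjusted p = 0.0498, adjusted p = 0.723, limma). Wnt10b was at 221, 295 and 361 in Ctrl and at 89.3, 113 and 119 in Tet1/2 cKO libraries, also apart, with a log2 fold change of -1.42 ± 0.67 (adjusted p = 0.723, limma).

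Wnt4 was at 611, 1357 and 745 in Ctrl and at 330, 586 and 522 in Tet1/2 cKO libraries (-0.87 ± 0.45). Lrp5 was at 2653, 1885 and 2004 against 1390, 1765 and 1765 (-0.40 ± 0.41), and Lgr4 at 754, 1436 and 756 against 575, 595 and 657 (-0.62 ± 0.45). These 3 genes were apart by small gaps between the lowest Ctrl and the highest Tet1/2 cKO library. Wnt5a was at 125, 268 and 322 in Ctrl and at 94.6, 116 and 177 in Tet1/2 cKO libraries (-0.82 ± 0.76), and Lrp6 at 2180, 2447 and 1772 against 1950, 1681 and 2136 (-0.14 ± 0.31), both with overlap. Rspo2 was at 182, 165 and 336 against 154, 304 and 154 (-0.16 ± 0.70). Wnt16 was the most variable member, at 16.9, 75.8 and 178 in Ctrl and at 4.58, 32.0 and 192 in Tet1/2 cKO libraries (-0.93 ± 1.43). The sign turned for Wnt16 without Tet1/2 cKO replicate 1 (0.35), and for Rspo2 without Ctrl replicate 3 (0.16) or Tet1/2 cKO replicate 3 (0.0025).

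The osteoblast and osteocyte marker sum was 1010560 to 1305130 normalized counts in Ctrl and 315763 to 698508 in Tet1/2 cKO libraries, and thus lower in every double knockout library. None of the 13 markers was at 0 in all libraries of a group. The sums of 9 adipocyte markers (10852 to 13595 in Ctrl, 3852 to 9026 in Tet1/2 cKO) and of 10 endothelial markers (19450 to 23630 and 10465 to 16655) were lower in every double knockout library as well. Neutrophil sums overlapped, at 820382 to 1244500 and 1158560 to 2654480, with a positive fold change for 10 of 10 markers. Skeletal muscle sums also overlapped (129134 to 551739 in Ctrl, and 7018, 3621 and 488505 in Tet1/2 cKO), with a negative fold change for 10 of 10 markers. So did chondrocyte (9 of 9 tested markers negative), fibroblast and tendon (7 of 8), osteoclast (9 of 10) and B-lineage sums (9 of 10). In Ctrl replicates 1 to 3 the muscle sums (129134, 450189 and 551739) had the same order as Wnt16. In Tet1/2 cKO, replicate 3 was highest in muscle sum and Wnt16, while replicates 1 and 2 had opposite orders in them. The part of these marker sums in the Wnt values was not tested.

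In the single knockouts no member was called by limma, and for every member the groups overlapped with Ctrl, whereas 3.54% of genes were apart lower and 4.28% apart higher in Tet1 cKO, and 3.43% and 2.54% in Tet2 cKO. No member reached an unadjusted p under 0.05 in either, beside 382 genes (2.28%) for Tet1 cKO and 368 (2.19%) for Tet2 cKO. Of these, 2 genes each passed the adjusted threshold in limma (0.0119%) and in edgeR, and DESeq2 called 24 and 13. Among the members edgeR and DESeq2 called 0 in both. The libraries of one genotype differed widely. Tet1 cKO replicates 1 to 3 had Wnt10b at 794, 142 and 358 and Tet2 cKO replicates 1 to 3 at 990, 169 and 274. Wnt5a followed with 681, 125 and 503 and with 834, 120 and 234, and Wnt16 with 626, 57.0 and 60.2 and with 461, 182 and 40.3. In both genotypes replicate 1 was highest for all 3 ligands. These replicates also had the highest sums of 10 skeletal muscle markers, 1278340 in Tet1 cKO and 1697580 in Tet2 cKO against 3621 to 768050 in the other 10 libraries. Muscle sums did not follow Wnt10b and Wnt5a in the other replicates, at 8948 in Tet1 cKO replicate 3 and 768050 in Tet2 cKO replicate 2. Within Tet2 cKO the muscle sums (1697580, 768050 and 3851) had the same order as Wnt16. In Tet1 cKO, replicates 2 and 3 were far below replicate 1 in both Wnt16 and muscle sums (24909 and 8948). The sums of 8 fibroblast and tendon markers, 225406, 58909 and 149601 in Tet1 cKO and 165051, 43373 and 72756 in Tet2 cKO, had the same order within a genotype as Wnt10b and Wnt5a. The part of either in these ligand values was not tested.

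The other members also differed between libraries of a genotype. Lrp4 was at 4555, 3377 and 6016 in Tet1 cKO and at 9030, 2338 and 8177 in Tet2 cKO libraries. Lrp5 was at 1950, 2304 and 4598 and at 3739, 1481 and 4555, and Lgr4 at 1662, 882 and 1495 and at 2163, 566 and 1507. Tet2 cKO replicate 2 was lowest of its genotype for all 3 receptors and also had the lowest osteoblast and osteocyte marker sum of all 12 libraries (285993). Axin2 was at 218, 118 and 194 and at 361, 164 and 137, Lrp6 at 3246, 1863 and 2239 and at 3817, 1516 and 2453, and Wnt4 at 501, 504 and 960 and at 1000, 425 and 1281. Rspo2 ranged from 216 to 265 in Tet1 cKO and from 27.4 to 297 in Tet2 cKO libraries.

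Whether the difference made by the Tet1 deletion depended on Tet2 was tested as an interaction, the difference between Tet1/2 cKO and Tet2 cKO minus that between Tet1 cKO and Ctrl. It was negative for 9 of 10 members, with a median of -1.34 against -0.01 over all genes, and was called for none by limma. An unadjusted p under 0.05 was found for Lgr4 (-1.49 ± 0.63) and Axin2 (-1.63 ± 0.72), beside 10.8% of all genes, with an adjusted p of 0.460 for both (limma). After adjustment limma and edgeR each called 2 genes (0.0119%) and DESeq2 108. With both muscle-rich libraries left out, an alternative added after the data were seen, the interaction was -0.90 for Lgr4, -1.03 for Axin2, -0.67 for Wnt10b and 0.04 for Lrp6. No gene of the 8 lists of other pathway genes was called by limma in any of the Tet comparisons, with 70 of 79 tested.

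Members resembled each other and other genes across libraries. Likeness was taken as the smaller Pearson r of log2 values over the 9 VitC and the 12 Tet libraries, among 11193 genes tested in both, and these libraries share groups and tissue composition. Wnt10b and Wnt5a had an r of 0.932 over 9 and 0.938 over 12 libraries, and Wnt4 and Lrp4 of 0.871 and 0.870. The nearest genes were Auts2 (0.961) and Tgfb2 (0.946) for Wnt5a, Ptprg (0.95) and Eri3 (0.95) for Wnt10b, and Gpsm1 (0.877) and Lrp4 (0.870) for Wnt4. For the receptors they were Spns2 (0.929) and Syt12 (0.926) for Lrp4, Pdgfd (0.828) and Mrgpre (0.805) for Lrp5, Arhgap5 (0.939) and Apc (0.932), a scaffold of the beta-catenin destruction complex, for Lrp6, and Insig2 (0.919) and Slc37a3 (0.888) for Lgr4.

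Peak lists were pooled within a group, so that the following values have no replicate error and no test. The length covered by peaks in the window of each gene was compared as a ratio after adding 1000 bp to each length, and ratios past a fold of 1.5 were counted beside all genes. The windows of most members also hold other genes, such as Cdc42 for Wnt4 and Arf3, Ddn and Wnt1 for Wnt10b.

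In femurs, VitC withdrawal left 5hmC cover lower by that fold at 2 of 10 members, Wnt10b and Lrp5, and higher at none, beside 7.54% of 22110 genes lower and 11.1% higher (18.7% in either direction). Wnt10b had 10 peaks over 3632 bp with VitC and 5 over 1970 bp without (ratio 0.641), none within 1 kb of its start, and the Wnt10b start was the nearest for 2 of the peaks in each list. Lrp5 had 36 peaks over 18275 bp with VitC and 22 over 10857 bp without (ratio 0.615), of which 16 and 7 were intronic and 11 and 5 were nearest the Lrp5 start. Cover was lower at 9 members in all, with a median log2 ratio of -0.38. Over all genes the median was negative as well (-0.11), so a lower ratio was not particular to the members. The exception among the members, Rspo2, had 32839 bp with VitC and 33862 bp without. Lgr4 had the widest cover, 43.2% of its window with VitC and 32.9% without. The lists as a whole covered 175469570 bp with VitC and 174982662 bp without. Fold enrichment times length, in place of length, put 4 members past the threshold.

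In Tet1/2 cKO femurs, cover was lower past a fold of 1.5 at all 10 members, as it was at 85.9% of 19982 genes (0.125% were higher, 86.1% in either direction), and the median log2 ratio of the members (-1.07) was close to that of all genes (-1.12). Whole lists covered 272050742 bp in Ctrl and 122422488 bp in Tet1/2 cKO. Rspo2 had the lowest ratio of the members, from 19 peaks over 12542 bp to 2 intronic peaks over 765 bp (ratio 0.130). The other members had ratios from 0.395 (Wnt16) to 0.577 (Lgr4). Near Axin2 cover went from 30642 to 15735 bp, near Wnt10b from 19276 to 8540 bp and near Lrp4 from 55153 to 27029 bp. The peak within 1 kb of the Wnt10b start (98777069 to 98777690 on chromosome 15) lay inside the gene and was in the Ctrl list only. Peaks within 1 kb of the starts of Lrp4 and Lrp5 were in both lists. By number of peaks, 4 members were past the threshold.

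**Figure D4:**
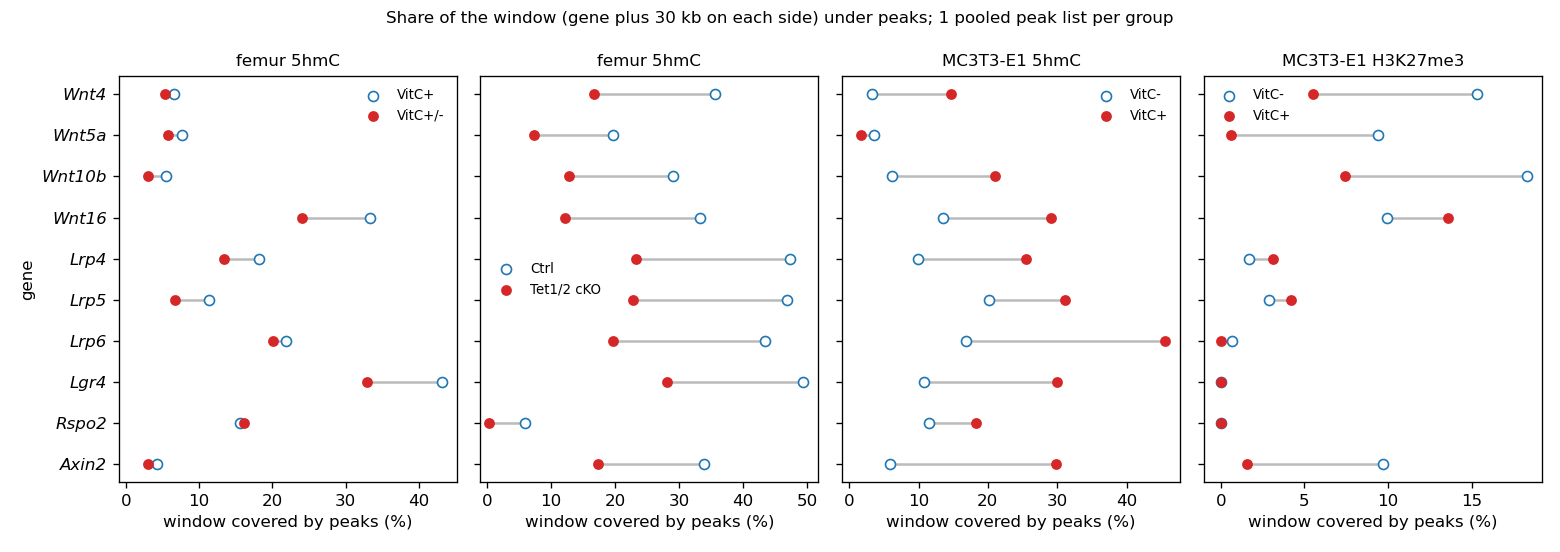
Share of each window (the gene and 30 kb on either side) that is covered by peaks in percent, with 1 pooled list per group and a line joining both groups of a comparison. Tet1/2 cKO lies left of Ctrl for all 10 genes, MC3T3-E1 5hmC with VitC lies right of 5hmC without VitC except for Wnt5a, and H3K27me3 with VitC lies left for Wnt4, Wnt5a, Wnt10b, Lrp6 and Axin2.

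In MC3T3-E1 cells, 5hmC cover was higher with VitC at 9 members, beside 48.8% of 22191 genes, and lower at Wnt5a, beside 28.3% (77.1% in either direction). The median log2 ratio was 1.35 for the members and 0.54 for all genes, with whole lists of 195108946 bp with and 144002247 bp without VitC. Axin2 led with 32 peaks over 26982 bp with VitC and 11 over 5366 bp without (ratio 4.40), 25 of the 32 not overlapped without VitC. Wnt4 had 19 peaks over 12028 bp and 7 over 2742 bp (ratio 3.48), and Wnt10b 21 over 13968 bp and 6 over 4137 bp (ratio 2.91), of which 5 and 3 peaks were nearest its start. The regions printed above upstream of Wnt10b and Axin2 were picked for having no overlapping peak without VitC, so that absence is not a result.

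Among the receptors, Lrp6 reached the widest cover, 82183 bp or 45.5% of its window with VitC against 30303 bp without (ratio 2.66). Lgr4 (2.66) and Lrp4 (2.45) had similar ratios, and Wnt16 one of 2.04. Rspo2 (1.55) and Lrp5 (1.53) passed by little. Wnt5a had few peaks, 3 over 1353 bp with VitC and 5 over 2848 bp without (ratio 0.611). A 5hmC peak within 1 kb of the start was found with VitC at 6 members (Wnt10b, Lrp4, Lrp5, Axin2, Lgr4 and Rspo2) and at 42.0% of all genes, and without VitC at 2 (Lrp4 and Axin2) and at 21.1%. Within 1 kb of the Axin2 start the fold enrichment was 15.2 with VitC (108919302 to 108919994 on chromosome 11, upstream of the start) and 4.94 without. Within 1 kb of the Lrp4 start it was 15.6 with and 4.44 without. By number of peaks, 6 members were past the threshold.

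H3K27me3, the mark of Polycomb repression, had peaks near 8 members in MC3T3-E1 cells and none near Lgr4 or Rspo2. Cover was lower with VitC at 5 members, beside 54.3% of 15620 genes, and higher at Lrp4, beside 4.31% (58.6% in either direction). Whole lists covered 232690264 bp without VitC and 144507593 bp with it. Wnt5a went from 3 peaks over 7537 bp without VitC to 1 over 468 bp with it (ratio 0.172). The peak over its start (28505238 to 28506175 on chromosome 14) was in the list without VitC only. Axin2 went from 8763 to 1394 bp (ratio 0.245), in peaks up- and downstream of the gene. Wnt4 went from 12538 to 4492 bp (ratio 0.406), with 7 peaks in each list, all upstream of its start, and Lrp6 from 1221 bp to none.

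Wnt16 and Lrp5 did not follow and stayed within a fold of 1.5. Lrp5 had 4 peaks over 4630 bp without VitC and 6 over 6776 bp with it (ratio 1.38). Of these, 2 and 4 were nearest the Lrp5 start. The peak over the printed Wnt16 promoter began at 22287760 on chromosome 6 in both lists and ended at 22290016 without and at 22296095 with VitC. The cover of the Wnt16 window was 6991 bp without and 9535 bp with VitC (ratio 1.32). For Wnt10b the cover of 12140 bp without and 4944 bp with VitC lay entirely in peaks whose nearest start was that of Wnt1 or Ddn. The same was true of Lrp4, where 1986 bp without and 3605 bp with VitC (ratio 1.54) lay downstream, nearest the start of Ckap5. H3K27me3 peaks of the members were weak throughout, none with a -log10 q of 5 or more in either list. By number of peaks, 2 members were past the threshold.

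**Figure D5:**
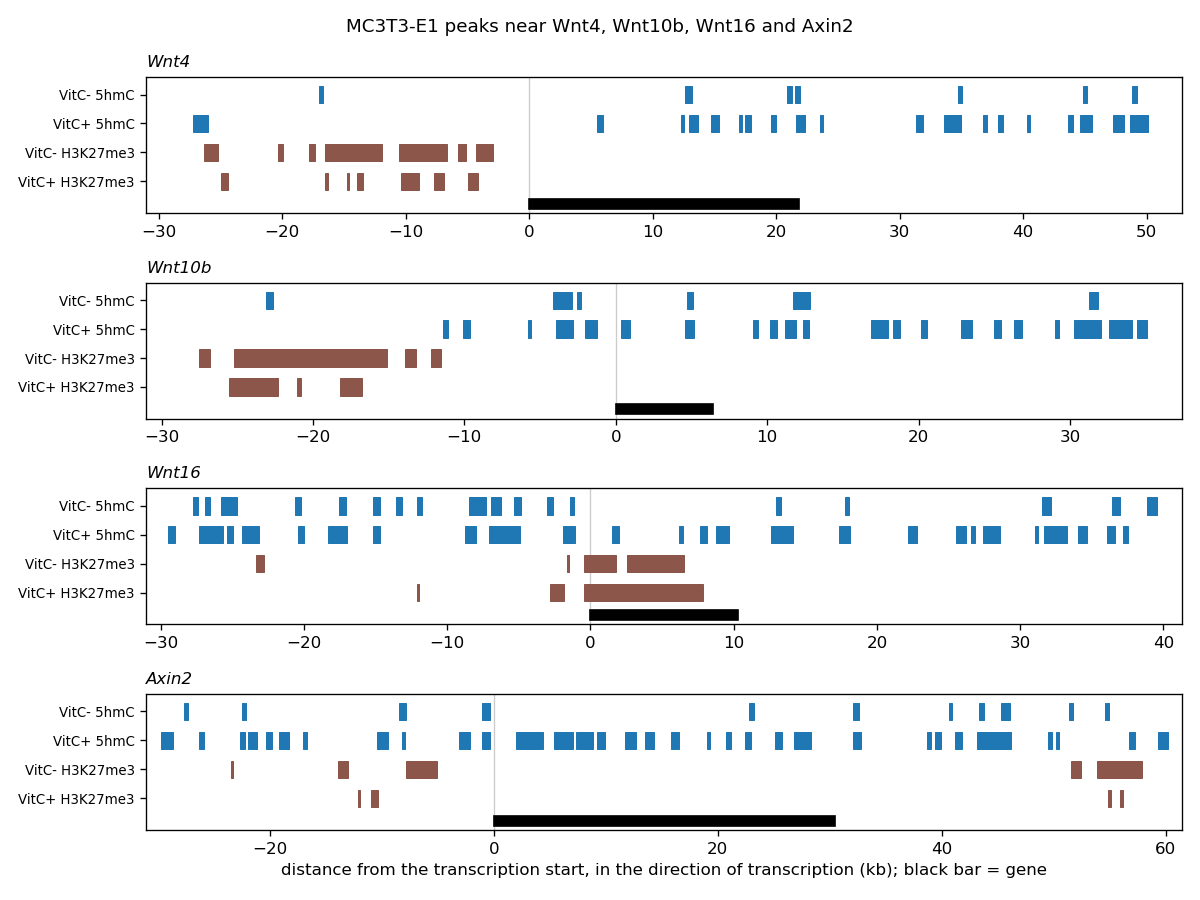
Peaks of MC3T3-E1 cells around 4 members by distance from the transcription start in kb, with 5hmC in blue, H3K27me3 in brown and the gene as a black bar. More 5hmC peaks with VitC than without are seen around Wnt4, Wnt10b and Axin2, and the H3K27me3 block at the Wnt16 start is present in both lists.

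H3K9me3, the mark of constitutive heterochromatin, had peaks near 6 members and was lower with VitC at all 6, beside 47.8% of 14600 genes (7.31% were higher, 55.2% in either direction), with whole lists of 66133741 bp without and 43103393 bp with VitC. Rspo2 went from 7 peaks over 5888 bp to 2 over 492 bp (ratio 0.217), Lrp6 from 6781 to 1181 bp (0.280), Lrp5 from 7168 to 1713 bp (0.332), Lgr4 from 4808 to 1787 bp (0.480), Wnt4 from 757 bp to none (0.569) and Axin2 from 12387 to 7664 bp (0.647). Of these peaks, 1 of 27 without VitC and 0 of 10 with it had a -log10 q of 5 or more. When peaks overlapping the window by at least 1 bp were counted, Wnt4 did not differ in that direction (log2 ratio 0.00657). No member had an H3K9me3 peak within 1 kb of its start.

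The peak changes and the expression differences of the femurs can be set side by side for single members, without a test. Lrp5 was lower by the fold named in femur 5hmC after withdrawal and had lower RNA in all 3 VitC+/- than VitC+ libraries, short of the threshold. Wnt10b, the other member past that fold, had higher mean RNA, and most 5hmC peaks counted for both genes with VitC were nearest the start of a neighbour. In the Tet1/2 cKO femurs, Rspo2 had the lowest 5hmC ratio of the members and Axin2 the lowest p in RNA.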

How the data were processed

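Femur RNA-seq, 5hmC capture and ChIP-seq files were used as deposited. Per the submitters' processing notes the authors used STAR 2.6.0b-1, featureCounts 1.6.3 and DESeq2 2.11.40.2 for RNA, and BWA 0.7.15.1 and MACS2 2.1.1.20160309.6 for peaks. For the VitC femurs the authors deposited RPKM. For the Tet femurs the authors deposited a signal, counts divided by DESeq2 size factors, and the values were whole multiples of 1 read (tolerance 0.02) for 100% of them. The peak lists deposited give a fold enrichment (a ratio over the local background) and a -log10 q-value for each peak, pooled over samples.

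Log2(scaled RPKM + 0.5) and log2(normalized count + 1) were fitted with limma 3.58.1 (trend, R 4.3.3) over all 9 or all 12 libraries, with genes kept at 1 RPKM or 10 normalized counts in 3 libraries, two-sided tests and Benjamini-Hochberg adjustment over all genes. Fold changes are on these scales, which understates changes of low genes. edgeR 4.0.16 and DESeq2 1.42.0 were run on the recovered reads as alternatives. Tests and peak counts were tested on simulated data. The replicates are separate mice, 3 per group. Same-numbered pairs correlated over 0.1 in 4 of 9 cases in the VitC and 6 of 18 in the Tet experiment. The best partner had the same number for 6 of 9 and 3 of 12 libraries. Whether same-numbered libraries were paired is not known, and a replicate block was an alternative. The members and the gene lists were chosen with earlier results of these data known. Named genes are the members, the 2 genes most like each member, and Gulo, Tet1 and Tet2. At most the 2 called genes of largest change per pathway list in VitC+/- against VitC+ or Tet1/2 cKO against Ctrl are named too. Beyond this rule Wif1, Kremen1, the keratinocyte markers Cdsn, Krt5 and Krt14, and neighbours of the members are named. Peak names and the study's methods give 7 days of culture for the ChIP cells, and the growth protocol in the labels differs. The 5hmC lists of the VitC femurs held autosomes only.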

Additional observations from a re-analysis of the deposited data

How the results depend on the processing

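With 1 replicate left out, the number of members called ranged from 0 to 1 for VitC+/- against VitC+, from 1 to 5 for VitC+/- against WT and from 0 to 2 for WT against VitC+, and was 0 in all Tet comparisons. Over all genes the leave-out counts were 487 to 1306 (1692 with all libraries) for VitC+/- against VitC+, 2274 to 4113 (3934) for VitC+/- against WT and 0 to 604 (0) for WT against VitC+. Unscaled RPKM gave 876 genes for VitC+/- against VitC+. Leaving out the low-depth WT library, added after the data were seen, gave 2296 genes and 0 members there. Leaving out both muscle-rich knockout libraries, also added later, gave 0 members in every Tet comparison. DESeq2 called 24, 13, 10 and 108 genes for Tet1 cKO, Tet2 cKO, Tet1/2 cKO and the interaction, against 2, 2, 0 and 2 by limma.

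Same-numbered libraries did not deviate together throughout. Their correlations ranged from -0.19 to 0.46 over 9 pairs in the VitC experiment (4 over 0.1, best partner of the same number for 6 of 9 libraries) and from -0.57 to 0.53 over 18 pairs in the Tet experiment (6 over 0.1, 3 of 12). With the replicate block, 2 members (Lrp4 and Lrp5) and 774 genes were called for WT against VitC+, 4 members for VitC+/- against WT, and 0 for the other comparisons.

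For peaks, fold enrichment times length put 4 members past the threshold in the VitC femurs. By number of peaks it was 4 in the Tet1/2 cKO femurs, 6 for MC3T3-E1 5hmC and 2 for H3K27me3. With a -log10 q of at least 5 it was 0 for H3K27me3 and 0 for H3K9me3, since 0 or 1 peaks were left. The H3K9me3 log2 ratio of Wnt4 was 0.00657 when peaks overlapping the window by at least 1 bp were counted, against -0.81 by midpoint. Of 1029 log2 fold changes of the members and the 10 called pathway genes under alternatives, 38 had the other sign, and 51 lost and 9 gained a call. Of 205 peak ratios 3 had the other sign. The causes were not tested.

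Low counts limit Wnt16, Axin2 and Rspo2 in the VitC femurs, and 3 libraries per group limit all tests. Pooled peak lists give no replicate error.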
